A study of Mus musculus with 8 samples.

Results

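Osr1, Sall1, Wt1, Pax2 and Pax8 encode transcription factors that specify the metanephric mesenchyme, the embryonic tissue from which nephrons arise. They were examined in mouse nephron progenitors with and without a conditional deletion of the histone deacetylase genes Hdac1 and Hdac2. All array probes whose RefSeq accession maps to the 5 symbols were taken, which gave 6 of 55681 probes. Osr1, Sall1, Wt1 and Pax8 have 1 probe each and Pax2 has 2. The 6 probes were well above background in both dyes on all 8 arrays, so each passed the filter on dim probes, which kept 30364 probes.

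In the mutant group, kidneys carried the Six2CreEGFP transgene with floxed alleles of Hdac1 and Hdac2. In the wildtype group, they carried the same transgene with unfloxed alleles, so the transgene is common to both groups. All were C57BL/6 at embryonic day 15.5, and cells were sorted for the EGFP of the transgene, which is driven from Six2 and marks nephron progenitors of the cap mesenchyme. Each group had 4 pools, and how many animals went into one is not stated in the labels. On every two-colour array Cy5 held 1 pool and Cy3 held RNA of wildtype pool 1, so that values are log2 ratios of Cy5 over Cy3 unless stated otherwise. Within each group, the arrays of pools 3 and 4 were as close as repeats of one RNA, so the mean of both counted as 1 sample and 3 samples per group remained. Where a mutant is called lower or higher in a pool, it is compared with the wildtype sample of the same pool number. That pairing was taken from correlations in these data and not from a label.

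Osr1 is an odd-skipped zinc finger factor and one of the earliest markers of the intermediate mesoderm, upstream of the other members. Sall1 is a zinc finger factor whose amino terminus recruits the NuRD complex, the repressor that contains HDAC1 and HDAC2. Wt1, the Wilms tumour suppressor, is needed for survival and epithelial conversion of the mesenchyme and is later abundant in podocytes. Pax2 and Pax8 are related paired-domain factors with overlapping roles in the nephric lineage, expressed in the mesenchyme, the ureteric epithelium and the first epithelial vesicles. In mouse kidney, WT1 is known to bind near Pax2 and Sall1.

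For that reason the RefSeq promoter windows (assembly GRCm38.p6, 250 bases before to 50 after a transcript start) were searched on both strands for 2 motifs of the type bound by WT1 and EGR zinc fingers, GCGTGGG and GCGGGGG. Sall1 had 3 windows, Pax2 3 and Pax8 1. Osr1 and Wt1 were not among those matched. GCGTGGG occurs in 5.04% and GCGGGGG in 10.8% of 32851 windows, and 1.12% hold both. The Sall1 window at chr8:89042813-89043112 (minus strand) held 1 match to GCGTGGG and 3 to GCGGGGG, none of them overlapping. The Pax2 window at chr19:44756656-44756955 (plus strand) held 1 match to GCGGGGG. Both windows are printed 5′ to 3′ on the strand of the gene, with matches on either strand in capitals, because they are the Sall1 and Pax2 windows with the most matches. Of the other member windows, 1 further Sall1 window (chr8:89044113-89044412) held 1 match to GCGGGGG and the rest held neither motif.
Sall1: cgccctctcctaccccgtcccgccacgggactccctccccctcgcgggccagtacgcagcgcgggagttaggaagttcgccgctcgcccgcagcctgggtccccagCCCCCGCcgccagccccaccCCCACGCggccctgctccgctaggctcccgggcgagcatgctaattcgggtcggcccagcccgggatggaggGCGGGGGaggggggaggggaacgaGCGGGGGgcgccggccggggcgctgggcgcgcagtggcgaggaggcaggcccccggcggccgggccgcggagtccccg
Pax2: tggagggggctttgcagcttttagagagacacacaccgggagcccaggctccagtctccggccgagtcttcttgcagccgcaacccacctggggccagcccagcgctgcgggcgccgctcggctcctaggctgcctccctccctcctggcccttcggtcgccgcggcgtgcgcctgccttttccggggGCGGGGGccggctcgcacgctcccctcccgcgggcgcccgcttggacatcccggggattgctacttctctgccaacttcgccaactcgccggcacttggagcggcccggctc
The Sall1 window holds 39 CpG dinucleotides and the Pax2 window 30, against a median of 7 over all windows. Both motifs contain a CpG, so the choice of windows by matches favours high counts. The other Sall1 windows hold 18 and 27, and the other Pax2 windows 7 and 23. The Pax8 window (chr2:24475550-24475849, minus strand) holds 7 and neither motif. A match is a string of letters and no evidence of binding in these cells.

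The labels were checked first at the targeted genes. Hdac1 read 67.4%, 75.7% and 81.4% of the wildtype level in mutants at its 3 probes, and Hdac2 read 91.4% at its 1 probe, none passing in limma (adjusted p of 0.376 or higher). Whether these probes lie in the floxed exons was not analysed here. All 7 cap mesenchyme markers were detected, with lower mutant means in 5 and a median difference of -0.31. Six2, on which the sort rests, differed by -0.13 ± 0.14 and -0.17 ± 0.14 (SE) at its 2 probes. The list averaged -0.64 to -0.34 in mutant and 0.05 to 0.19 in wildtype samples, and its one gene that passed, Cited1, is described with the network genes. The wildtype 2 array stood apart, with 48627 probes detected in Cy5 where the remaining arrays had 28150 to 33982. In Cy3, which holds the same RNA on every array, 47833 probes were detected there, against 29617 to 34468 on the remaining arrays. Arrays give no counts, and their number limits the precision.

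None of the 6 probes passed the test between mutant and wildtype samples. Wt1 was the member with the clearest difference, at 77.2% of the wildtype level in mutants. Its groups did not overlap, so the mutant was lower in each of the 3 pairs of samples with the same pool number. Any other pairing would give the same. Osr1 was at 88.5% and Sall1 at 98.8%. Pax8 was at 115%, and the Pax2 probes lay on either side of the wildtype level, at 82.1% and 112%. These values came from limma over 30364 probes, with Benjamini-Hochberg adjustment and a threshold of 0.05. Over the whole array 8 probes passed (0.0263%), 4 higher and 4 lower in mutants, so that 0 of 6 is near the background. With arrays centred on spike-in spots the calls were 6 higher and 33 lower, and with the scanner software's processed signals 2 higher and 4 lower. Only the Wt1 probe had an unadjusted p under 0.05, as did 6.45% of all probes. Of the differences 4 were negative and 2 positive, with a median of -0.10 on the log2 scale, against -0.0030 over all probes. With the pool number as a block, 35 probes passed over the array (0.115%) and again none of the members.

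Wt1 had log2 ratios of -0.17, 0.15 and -0.09 in mutant pool 1, pool 2 and pools 3 and 4, against 0.18, 0.40 and 0.43 in the wildtype ones. The groups did not overlap, though mutant pool 2 and wildtype pool 1 were separated by only a narrow gap. Groups that do not overlap were found for 13.6% of 29860 probes with values in every sample, and for 1 of the 6 member probes. The means were -0.04 ± 0.17 in mutants and 0.34 ± 0.13 in wildtype (SD, n = 3). The log2 difference was -0.37 ± 0.13 (SE, 95% interval -0.67 to -0.07), with an adjusted p of 0.641 in limma and an unadjusted p of 0.0212. A lower unadjusted p was found for 1001 probes (3.30%). An exact two-sided permutation test gave p = 0.1, the smallest that 3 against 3 samples allow. Between samples of the same pool number the mutant was lower by 0.36, 0.25 and 0.51 on the log2 scale in pool 1, pool 2 and pools 3 and 4. Pool 2 was the highest mutant sample, and wildtype pool 1 the lowest wildtype one. Wildtype pool 1 was hybridised against itself, and its 0.18 was therefore measured with no difference in RNA. Wt1 has 1 probe on this array, which cannot tell its splice forms apart.

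**Figure D1:**
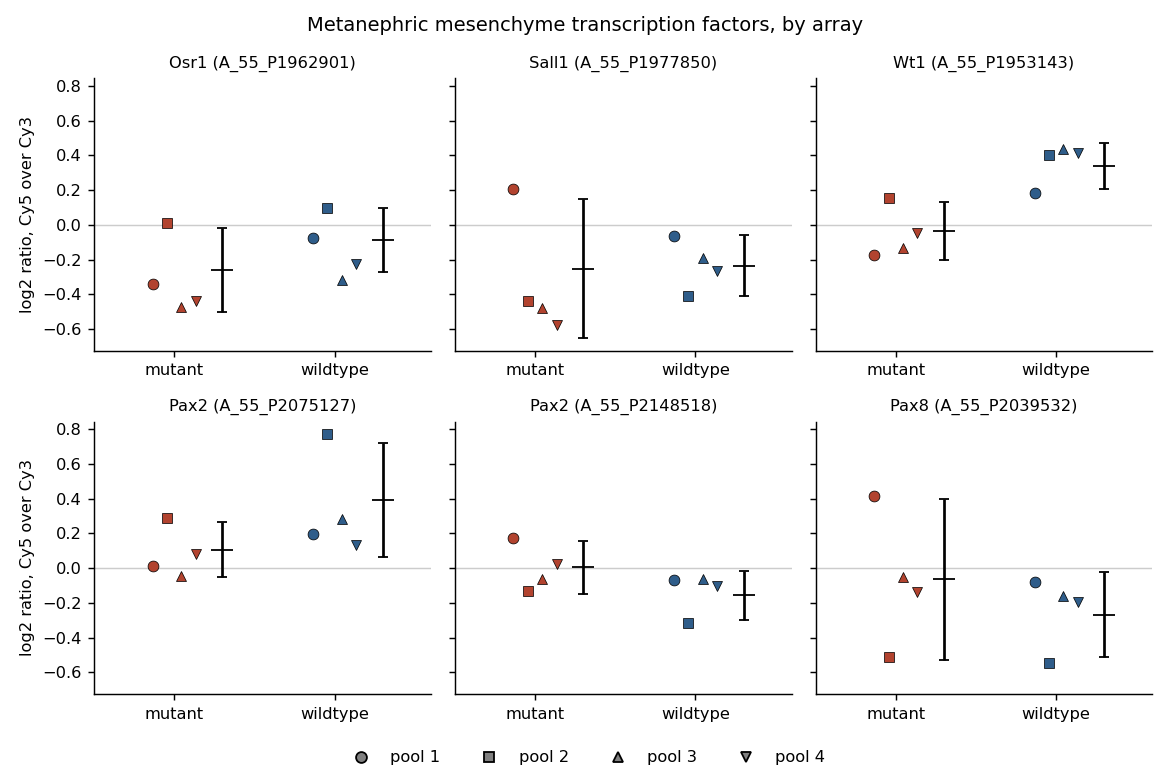
Log2 ratios of Cy5 over Cy3 for the 6 probes of the 5 factors on each of the 8 arrays, mutant left and wildtype right, with symbols for the pool; the black bars give the mean and SD of the 3 samples per group (pools 3 and 4 averaged). The Wt1 groups do not overlap, and at the other probes they do.

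Osr1 had log2 ratios of -0.34, 0.01 and -0.46 in mutant pool 1, pool 2 and pools 3 and 4, against -0.08, 0.10 and -0.27 in wildtype. Pool 2 was the highest sample of both groups, and the ranges overlapped. The mutant was lower in 3 of 3 pools, by 0.26, 0.09 and 0.18. The difference was -0.18 ± 0.16 (SE, 95% interval -0.55 to 0.19, limma adjusted p = 0.873).

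Sall1 differed least between the groups but varied widely among mutant pools. Its log2 ratios were 0.21, -0.44 and -0.53 in mutant pool 1, pool 2 and pools 3 and 4, against -0.06, -0.41 and -0.23 in wildtype. Mutant pool 1 was the highest of all samples, and the other mutant samples were the lowest. The pools disagreed in direction, with a mutant-minus-wildtype value of 0.27 in pool 1, -0.03 in pool 2 and -0.30 in pools 3 and 4. The difference was -0.02 ± 0.21 (SE, limma adjusted p = 0.989). Its 95% interval, -0.51 to 0.47, leaves room for a mutant level between 70.3% and 139% of the wildtype level. Without mutant pool 1 the difference was -0.25. Without mutant pools 3 and 4 it was 0.12.

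Pax8 varied more among the samples of a group than between the group means. It read 0.42, -0.51 and -0.10 in mutant pool 1, pool 2 and pools 3 and 4, against -0.08, -0.55 and -0.18 in wildtype. Pool 2 was lowest in both groups, and mutant pool 1 stood above every other sample. Its pooled SD within groups, 0.372, exceeded that of 90.2% of the probes, whereas that of Wt1, 0.152, exceeded 43.9%. The difference was 0.20 ± 0.24 (SE, 95% interval -0.37 to 0.78, limma adjusted p = 0.883). The mutant was higher in 3 of 3 pools, by 0.50, 0.04 and 0.08, so pool 1 carried most of it. Without mutant pool 1 the difference was -0.04. With the block and without pool 1 of both groups it was 0.06. With the pool number as a block the SE was 0.12 and the 95% interval -0.11 to 0.51.

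The probes of Pax2 did not move alike, and both were dim. At probe A_55_P2075127 the log2 ratios were 0.01, 0.29 and 0.02 in mutant pool 1, pool 2 and pools 3 and 4, against 0.20, 0.77 and 0.21 in wildtype. The mutant was lower in each pool, by 0.18, 0.49 and 0.19, yet mutant pool 2 lay above 2 of the wildtype samples. The difference was -0.29 ± 0.18 (SE, 95% interval -0.71 to 0.14, limma adjusted p = 0.873). With the pool block its interval, -0.55 to -0.02, did not include 0, and the adjusted p in limma was 0.418. Without the wildtype 2 sample the difference was -0.10. With the block and without pool 2 of both groups it was -0.19.

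At probe A_55_P2148518 the log2 ratios were 0.17, -0.13 and -0.02 in mutant pool 1, pool 2 and pools 3 and 4, against -0.07, -0.32 and -0.08 in wildtype. Here the mutant was higher in each pool, by 0.24, 0.19 and 0.06, and the groups overlapped. The difference was 0.16 ± 0.12 (SE, 95% interval -0.13 to 0.46, limma adjusted p = 0.873). Without the wildtype 2 sample it was 0.08, and with the block and without pool 2 of both groups 0.15. The first probe minus the second was 0.10 ± 0.29 in mutants and 0.55 ± 0.47 in wildtype (SD, n = 3), a contrast with an exact two-sided permutation p of 0.3. No direction for Pax2 can be given from this array.

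The wildtype 2 array set the first Pax2 probe apart in both dyes. Its spot had a Cy5 brightness of 2577 there, 35.3 times the local background, against 146 to 232 on the mutant arrays and 182 to 276 on the other wildtype arrays. The Cy3 brightness, which comes from the same RNA on every array, was 698 there. It was 95 to 108 on the mutant arrays and 93.5 to 131 on the other wildtype arrays. The normalized Cy3 level was therefore lower on mutant than on wildtype arrays by 0.55 on the log2 scale, and by 0.08 without the wildtype 2 array. For the other 5 probes the Cy3 levels on mutant arrays differed from those on wildtype arrays by 0.03 to 0.14 (exact permutation p of 0.0571 or more). Without the wildtype 2 array these differences were 0.09 for Osr1, 0.04 for Sall1, 0.03 for Wt1, 0.01 for the second Pax2 probe and -0.0090 for Pax8. At Wt1 the Cy3 difference was 0.05, against a Cy5 difference of -0.36 measured over the same 8 arrays. Osr1 had 0.08 in Cy3 and -0.10 in Cy5, Sall1 0.08 and -0.01, and Pax8 0.03 and 0.20. At the Pax2 probes the values were -0.55 and -0.81 (A_55_P2075127) and 0.14 and 0.27 (A_55_P2148518).

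**Figure D2:**
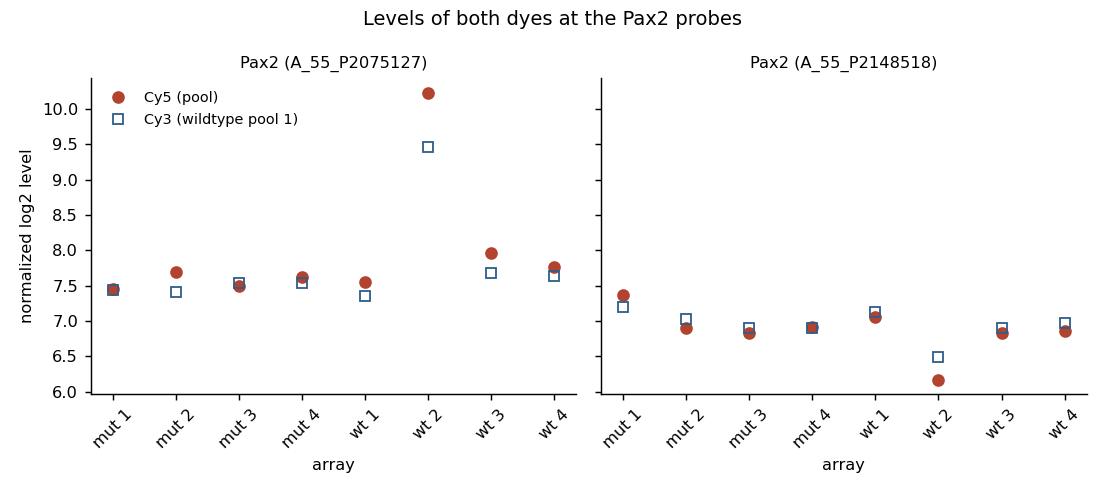
Normalized log2 levels of both dyes at the 2 Pax2 probes on each array, mutant arrays left of wildtype arrays; filled circles are Cy5 (the pool) and open squares Cy3 (wildtype pool 1 on every array). At A_55_P2075127 the wildtype 2 array reads 10.23 in Cy5 and 9.46 in Cy3, above all other arrays.

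**Figure D3:**
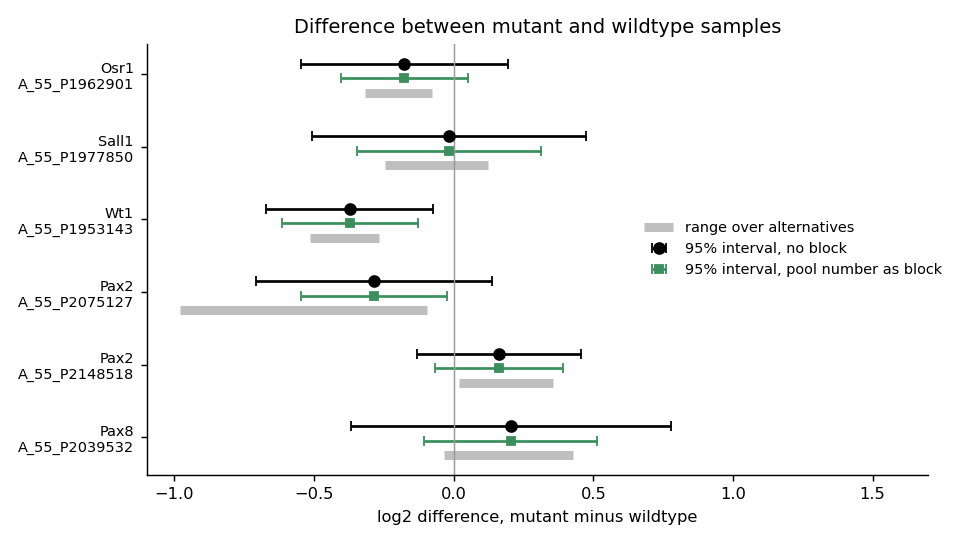
Log2 difference, mutant minus wildtype, for each probe with its 95% interval without a block (black circles) and with the pool number as a block (green squares), and the lowest to highest value over the alternative settings (grey bars). Only the Wt1 interval lies wholly below 0 without the block.

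Pool 2 stood out at several members in both groups, low for Pax8 and high for Osr1. Markers of most listed cell types moved with it. The 6 proximal tubule markers averaged -1.19, -2.43 and -0.59 in mutant pool 1, pool 2 and pools 3 and 4, against 0.01, -1.52 and 0.88 in wildtype. Pool 2 was lowest in both groups. The podocyte, renal vesicle, ureteric bud, leukocyte and erythroid lists were also lowest in pool 2 of both groups. Nephron progenitor markers were highest in pool 2 of both groups, at -0.34 in mutant and 0.19 in wildtype. The stroma list was lowest in pool 2 among mutants but highest there among wildtype samples. The endothelial list was lowest in pool 2 among wildtype samples only. The brightest proximal tubule markers, Pdzk1, a brush border scaffold, and Hnf4a, a transcription factor of the proximal tubule, differed by -1.46 ± 0.79 and -1.51 ± 0.61 (SE). Pdzk1 passed with the block only (limma adjusted p of 0.0406, against 0.855 without it). Whether tubule cells in the sort take part in the Pax8 values, a gene that tubule epithelium also expresses, was not tested.

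Podocytes are another source of Wt1 RNA, and 6 of 6 podocyte markers had lower mutant means, with a median difference of -0.73. None of them passed, and the phosphatase gene Ptpro differed by -1.34 ± 0.75 (SE). By sample the podocyte list averaged -1.14, -1.53 and -0.51 in mutant pool 1, pool 2 and pools 3 and 4, against 0.06, -1.09 and 0.69 in wildtype. Its summed Cy5 level ran from 1457 to 2760 on mutant arrays and from 1671 to 7517 on wildtype arrays, all 6 markers being detected. Podocyte markers were lowest in pool 2 of each group. Among mutants Wt1 was highest in pool 2. Among wildtype samples Wt1 was highest in pools 3 and 4, where the podocyte mean was highest as well. The margin was small, at 0.43 against 0.40 in pool 2, where the podocyte mean was lowest. Wildtype Wt1 was lowest in pool 1, at 0.18. The part of podocytes in the Wt1 difference was not tested. In sorted bulk RNA, fewer cells of a type and less RNA per cell cannot be told apart.

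Other epithelia and the stroma showed smaller shifts. Of 7 renal vesicle markers 6 had lower mutant means (median -0.40), with the cyclin gene Ccnd1 at -0.41 ± 0.12 and the inductive signal gene Wnt4 at 0.24 ± 0.11 (SE). Of 7 ureteric bud markers 6 had higher means (median 0.30), among them the keratin gene Krt18 by 0.30 ± 0.17 and the transcription factor gene Gata3 by 0.22 ± 0.11 (SE). All 6 stroma markers had higher means (median 0.34), the collagen genes Col1a1 and Col3a1 by 0.50 ± 0.18 and 0.25 ± 0.20 (SE). None of these passed. Pax2 and Pax8 are also expressed in ureteric epithelium, and the part of that list in their values was not tested. Of 5 endothelial, 3 leukocyte and 4 erythroid markers none passed, with medians of -0.08, -0.02 and 0.04. The brightest were the endothelial receptor gene Kdr (0.23 ± 0.22) and the cadherin gene Cdh5 (0.49 ± 0.25), the macrophage receptor gene Csf1r (0.01 ± 0.25) and the adaptor gene Tyrobp (-0.17 ± 0.19), and the globin genes Hba-a1 (0.03 ± 0.27) and Hbb-bt (0.05 ± 0.33), as differences with SE.

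**Figure D4:**
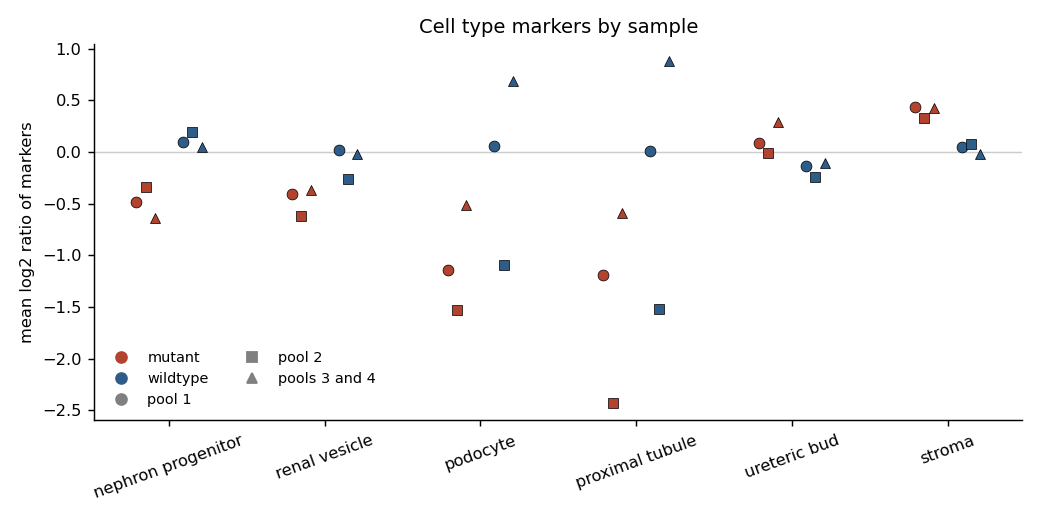
Mean log2 ratio of the markers of 6 cell types in each of the 3 mutant (red) and 3 wildtype (blue) samples, with symbols for the pools. Podocyte, proximal tubule, renal vesicle and ureteric bud means are lowest in pool 2 of each group, and nephron progenitor means are highest there. Stroma and ureteric bud means are higher in all mutant than in all wildtype samples, and nephron progenitor and renal vesicle means are lower. Podocyte and proximal tubule means overlap between the groups.

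The genes around the 5 factors were read next, from lists of their relatives, partners, dependent genes and cofactors. Of 11 relatives 4 were measured, and the paralogues Pax1, Pax3, Pax4, Pax5, Pax6, Pax7 and Pax9 were below the filter. The measured ones had lower mutant means in 4 of 4 cases, none passing, with a median of -0.31 against 0.0018 over 22662 genes. Osr2, the paralogue of Osr1, differed by -0.75 ± 0.28 and Sall2, a relative of Sall1, by -0.41 ± 0.10 (SE, limma adjusted p = 0.705 and 0.409).

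Of 19 partners in the mesenchymal network 1 fell and 0 rose (median -0.16). Over 22662 genes, 8 passed in either direction. The list was chosen with earlier results of these data known, so its count is not an independent result. The gene that fell was Cited1, a co-regulator of the least committed progenitors, at -2.72 ± 0.13 (SE, limma adjusted p = 0.00355, and 0.0323 with the block). Eya1 and Six2, which maintain the mesenchyme together with the 5 factors, differed by 0.05 ± 0.10 and -0.13 ± 0.14 (SE).

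Of 12 genes known to depend on a member 0 passed, with 4 means higher, 8 lower and a median of -0.07. Wnt4 differed as given above, and the secreted Wnt modulator gene Sfrp2 by -0.07 ± 0.12 (SE). Of 18 cofactors, which include the NuRD subunits bound by Sall1, the Pax partner Paxip1 and the Wt1 corepressor Basp1, 0 passed and the median was 0.01. Their differences lay between -0.28 and 0.21. The NuRD subunits Rbbp4 and Chd4 differed by -0.11 ± 0.10 and 0.07 ± 0.16 (SE). At an unadjusted p under 0.05 there were 2 relatives, 6 partners, 2 dependent genes and 0 cofactors, against 7.04% of all genes.

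**Figure D5:**
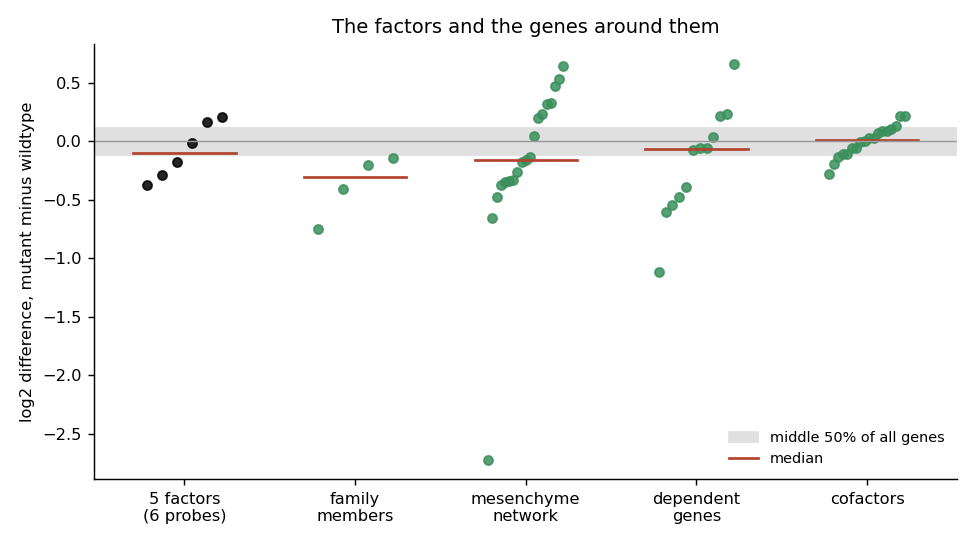
Log2 difference, mutant minus wildtype, of the 6 member probes (black) and of the measured genes of the 4 lists (green), with list medians in red; the grey band holds the middle 50% of all genes, from -0.12 to 0.12. Cited1, at -2.72, is the only listed gene that passed.

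The genes with sample profiles most like each member were found by the root mean square difference of log2 ratios over the 6 samples, among 14799 genes. For Pax8 these were Vav1 (0.0377) and Id1 (0.0672), and for Osr1 Slc25a33 (0.062) and Tafa2 (0.0892). For Sall1 they were Fancc (0.0743) and the Notch target Hes1 (0.0754), and for Wt1 Kcnmb2 (0.0832) and Phldb2 (0.0967). Wt1 had 2 genes within 0.1, Osr1 6, Sall1 15 and Pax8 16. The first Pax2 probe had 0, its nearest being Fbxo39 (0.118) and Syt10 (0.121). All profiles share the same 8 arrays and the same Cy3 RNA.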

How the data were processed

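Per array, the deposited files give intensity (median brightness and local background per dye of each spot), which per the file headers come from Agilent Feature Extraction 10.7.3.1. A value table, also deposited, holds log10 ratios of Cy5 over Cy3 and matched the scanner log ratios within 0.005. No spot of the 6 member probes was saturated. Median signals were background-corrected by normexp with an offset of 50 in limma 3.58.1 under R 4.3.3, then loess was applied to each array, control and outlier spots having weight 0. Levels of single dyes were also scaled between arrays (Aquantile). A probe was kept if Cy5 was well above background on 3 or more of a group's 4 arrays. Symbols came from RefSeq accessions (GRCm38.p6). Pools 3 and 4 differed in Cy5 by 0.06 (mutant) and 0.0565 (wildtype), a median absolute log2 difference over 5784 probes, and single Cy3 arrays, without wildtype 2, by 0.045 to 0.0777, so they were averaged. Other Cy5 pairs differed by 0.109 to 0.41. The labels do not say whether pools come from separate animals, and p-values measure the spread between these samples. Deviations from group means of same-numbered samples correlated over 22307 genes with r of 0.495, 0.542 and 0.528. From these correlations, and not from a label, the pool numbers were taken as pairs, and a blocked fit was run. The groups occupy different rows of 1 slide, and an effect of the row cannot be told apart from one of the genotype. The test was checked on simulated data. The members and lists were chosen with earlier results of these data known. Named genes are the members, the targeted genes, Six2, listed genes that passed in either fit, the 2 brightest of each list and the 2 nearest profiles. One gene that this rule names is not reported here. Alternatives varied the background correction, normalization, filter, variance model, block and samples left out.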

Additional observations from a re-analysis of the deposited data

Results flagged for a closer look

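Over the 4 arrays of each group, 36 sets of values of the 6 probes (log2 ratios, Cy5 levels and Cy3 levels) were searched for one array far from the others, and 7 were found. For independent values chance marks about 5% of such sets. That rate does not hold here, since pools 3 and 4 are near-repeats and the ratios and levels come from the same spots. Of the 7, 4 were on the wildtype 2 array. At Pax2 probe A_55_P2075127 its Cy5 level was 10.23, the other wildtype arrays reading 7.55 to 7.96, and its Cy3 level 9.46, the others reading 7.36 to 7.67. At Pax2 probe A_55_P2148518 its log2 ratio was -0.32, the others reading -0.10 to -0.06. At Pax8 its Cy5 level was 11.12, the others reading 11.66 to 11.71. Another 2 were on the mutant 1 array, where Sall1 had a Cy5 level of 11.92 (other mutant arrays 11.18 to 11.24) and Pax2 probe A_55_P2148518 one of 7.37 (others 6.84 to 6.92). The last was the Wt1 log2 ratio of the wildtype 1 array, 0.18, the others reading 0.40 to 0.44.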

How the results depend on the processing

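Each probe was refitted under up to 27 alternatives, and of 161 values 0 passed, 151 kept their direction and 10 turned. Wt1, Osr1 and both Pax2 probes kept their direction in all that were run. Wt1 ranged from -0.51 (spike-in centring) to -0.27 (median centring), with adjusted p of 0.108 (8 arrays as separate samples) or higher. An exact permutation over 4 against 4 arrays gave Wt1 p = 0.0286, against 0.1 for 3 against 3 samples. Like the fit to 8 arrays, it counts the near-repeat pools 3 and 4 as separate samples, so its p is too small. Sall1 turned to 0.0013 with background subtracted, 0.0188 with processed signals and with the deposited table, 0.0867 with median centring, 0.0746 as Cy5 levels and 0.124 in the replicate block without the pair of pools 3 and 4. Leaving out single samples or arrays, Sall1 ran from -0.25 to 0.12, Pax8 from -0.0355 to 0.43, Osr1 from -0.31 to -0.08, Wt1 from -0.47 to -0.30, and the Pax2 probes from -0.38 to -0.10 (A_55_P2075127) and 0.08 to 0.23 (A_55_P2148518). The cause of these turns was not tested. Spike-in centring moved the median of all probes to -0.14 and Cy5 levels to 0.12; relative to these, Wt1 was at -0.37 and -0.46. As Cy5 levels Pax2 probe A_55_P2075127 reached -0.98. Pax2 probe A_55_P2148518, at 0.16 in the report, was at 0.30 with background subtracted, 0.33 with processed signals and with the deposited table, 0.35 as Cy5 levels and 0.02 with spike-in centring. Spike-in centring put Pax8 at 0.06, Sall1 at -0.16 and Osr1 at -0.32.

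The 8 calls over the array became 35 with the replicate block, 254 with 8 separate arrays, 39 with spike-in centring, 2 with background subtracted, 1 as Cy5 levels, and 4 with probes above background on all arrays or with a trended, robust variance. Without single samples or arrays they ran from 0 (without wildtype replicate 1) to 10, and the blocked fit gave 5, 16 and 2 without pool 1, pool 2 and pools 3 and 4. The count of members called was 0 in each, and among the members and listed genes the block changed the call of Pdzk1 alone. Aquantile scaling leaves ratios as they are. The dim Pax2 spots limit what can be said of that gene.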
